A study of Mus musculus with 4 samples.

Results

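Polycomb proteins and DNA methyltransferases write 2 kinds of repressive mark on chromatin. Polycomb repressive complex 2 (PRC2) methylates histone H3 on lysine 27 through the catalytic subunits Ezh2 or Ezh1, which need the partner subunits Eed and Suz12. Bmi1 belongs to Polycomb repressive complex 1 (PRC1), which ubiquitinates histone H2A. Dnmt3a and Dnmt3b place new methyl groups on cytosine, and Dnmt1, recruited by Uhrf1 to newly copied DNA, keeps the pattern through cell division. In skin, PRC2 holds back differentiation and cell cycle inhibitor genes in epidermal progenitors, and Dnmt1 and Uhrf1 are known from self-renewing progenitors of human epidermis. The values here are the transcripts of these 9 genes in hair follicle stem cells with and without Tbx1, a T-box transcription factor.

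The probe sets were picked by gene symbol. The 9 genes and the gene lists further on were chosen with earlier results of these data known. Their counts beside the shares over all genes are therefore a description and not a test. Of 22690 probe sets on the array, 24 carried 1 of the 9 symbols alone, out of 20370 probe sets and 12388 genes tested. Suz12 had 6 probe sets, Dnmt3a 5, Ezh2 1, and the other genes 2 each. 22 of the 24 had a mean at or above a log2 intensity of 5.40, the percentile 40 of all probe sets, and a second probe set of Ezh1 and of Eed lay below it. Where 1 value stands for a gene, it is that of its brightest probe set. Probe sets of a gene share its transcript and are not replicates, and those whose names end in _s_at or _x_at can also bind other transcripts.

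RNA came from stem cells of female mice of mixed CD1/C57BL/6 strain at about postnatal day 60. The cells were sorted from back skin as cells of the bulge niche, by yellow fluorescent protein, integrin α6 and CD34. There were 2 groups of 2 arrays, wild type (WT) and conditional knockout of Tbx1 (cKO), and the titles number 1 array of each group as set 1 and 1 as set 2. The sources used here name neither the driver of the deletion nor whether arrays came from separate or pooled animals. The p-values of limma therefore reflect no more than the scatter among these 4 arrays, part or all of which may be technical. All 4 samples are described as taken 48 h after the hair was pulled out with wax, which starts regrowth, yet set 1 is also described as quiescent and set 2 as activated; the sets are therefore named by number. All 10 bulge markers looked at were above the 5.40 limit, as were 3 of 4 measured suprabasal markers. The bulge markers had a median difference between cKO and WT of 0.17. Within both sets 4 of them were higher in cKO and 1 lower (38.9% and 22.9% of all genes). Tbx1 read 9.54 and 8.88 on the cKO arrays and 10.53 and 10.37 on the WT arrays in sets 1 and 2, a difference of -1.24 (SE 0.25) that did not pass limma's test (adjusted p = 0.310). 2 arrays stood apart in control values. On the cKO set 1 array the 3′ signal of the added Dap control exceeded the 5′ signal by 2.95 on the log2 scale, against 1.74 to 1.82 on the others. For the cells' own actin and Gapdh transcripts the excess there was 1.68 and 0.68, against 1.09 to 1.18 and 0.24 to 0.34. On the WT set 2 array the nuclear RNA Malat1 read 12.35, against 9.80 to 10.56. With 2 arrays against 2, the smallest 2-sided p that exact permutation can give is 0.333.

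The 9 genes separated by direction. 7 of them, Ezh2, Suz12, Eed, Bmi1, Dnmt1, Uhrf1 and Dnmt3b, were lower in cKO than in WT within both sets, where 22.9% of all genes were, or 27.9% of genes above the limit. The other two, Ezh1 and Dnmt3a, were higher within both sets, as were 38.9% of all genes and 35.8% of those above the limit. On both cKO arrays, 6 genes lay below both WT arrays (16% of all genes did, 19.9% of those above the limit) and 1, Ezh1, lay above both (28.9%). Counted by probe set, 16 of 24 were lower within both sets (25.7% of all probe sets) and 5 higher (34.7%), while 13 had both cKO arrays below both WT arrays (17.3%) and 2 had them above (25.7%). The median difference of the 9 genes was -0.35 on the log2 scale, -0.28 in set 1 and -0.47 in set 2, against 0.05 over all genes. No probe set of the 9 genes passed limma's test after Benjamini-Hochberg adjustment over all 20370 (adjusted p from 0.341 to 0.985), a test that called 7 probe sets, or 0.0344%. At an unadjusted p under 0.05, limma gave 6 of the 24 as lower (5% of all probe sets were) and 1 as higher (5.9%). The directions given for the 9 genes are thus measured differences, none of which passed the test.

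**Figure D1:**
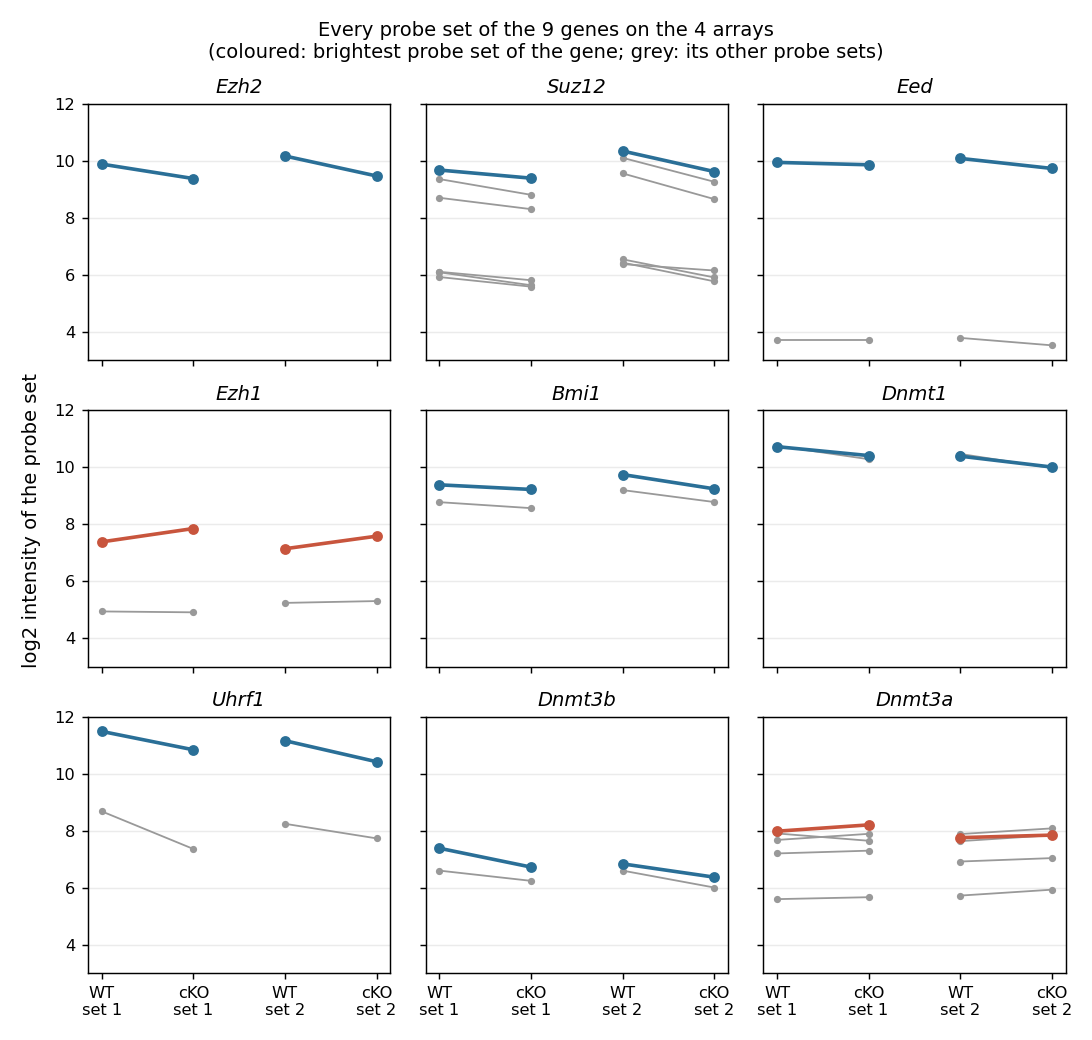
Log2 intensity of all 24 probe sets (vertical axis) on the WT and cKO arrays of set 1 and set 2 (horizontal axis), 1 panel a gene; lines join the arrays of a set, the coloured line is the brightest probe set of the gene and grey lines are its others. Blue lines of 7 genes slope down from WT to cKO in both sets, and the red lines of Ezh1 and Dnmt3a slope up.

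The PRC2 catalytic subunits differed in opposite directions. Ezh2, the form abundant in dividing cells, read 9.88 on the WT array and 9.37 on the cKO array of set 1, and 10.16 and 9.46 in set 2. Both cKO arrays lay below both WT arrays. The difference was -0.51 in set 1 and -0.70 in set 2, with a mean of -0.60 (SE 0.155, limma adjusted p = 0.342), which put the cKO signal at 65.8% of WT. Ezh1, the form that prevails in resting and differentiated cells, read 7.38 in WT and 7.85 in cKO of set 1, and 7.14 and 7.58 in set 2. Both cKO arrays lay above both WT arrays. Its difference was 0.47 in set 1 and 0.44 in set 2, with a mean of 0.45 (SE 0.17, limma adjusted p = 0.447), or 137% of WT. A second, dim Ezh1 probe set read between 4.91 and 5.30 on all arrays, below the limit, and differed by 0.02. Ezh2 minus Ezh1, as a difference of differences, was -0.98 in set 1 and -1.14 in set 2.

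The partner subunits of PRC2 were lower in cKO, Suz12 by more than Eed. Suz12, which holds the complex together, had its brightest probe set at 9.67 in WT and 9.38 in cKO of set 1, and at 10.34 and 9.62 in set 2. Both cKO arrays lay below both WT arrays, with little room between the cKO set 2 and WT set 1 values. The difference was -0.28 in set 1 and -0.72 in set 2, with a mean of -0.50 (SE 0.26, limma adjusted p = 0.547). All 6 Suz12 probe sets were lower within both sets (25.7% of all probe sets were), with mean differences from -0.70 to -0.26. In 5 of the 6 both cKO arrays lay below both WT arrays (17.3%). In each of the 6, the WT set 2 array was the highest of the 4 arrays. Eed, which reads the H3 lysine 27 mark, read 9.94 in WT and 9.85 in cKO of set 1, and 10.08 and 9.73 in set 2. Its groups did not overlap, but the difference was the smallest among the 7 lower genes, at -0.22 (SE 0.14, limma adjusted p = 0.605), with -0.08 in set 1 and -0.35 in set 2. A second Eed probe set, between 3.52 and 3.78, lay far below the limit and gave 0.00 and -0.26.

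The start regions of Ezh2, Suz12 and Ezh1 are shown because the first pair was lower in cKO and Ezh1 was not. Each holds 250 bases before the start on build GRCm38.p6, from chr6:47595031-47595280 (minus strand) for Ezh2, chr11:79992856-79993105 (plus strand) for Suz12 and chr11:101226464-101226713 (minus strand) for Ezh1. Capitals mark matches to the CCAAT box (CCAAT, both strands) and to the E2F site, the element of genes switched on at the entry to S phase (TTTCCCGC, TTTCGCGC, TTTGCCGC and TTTGGCGC, both strands, overlapping matches merged).
Ezh2: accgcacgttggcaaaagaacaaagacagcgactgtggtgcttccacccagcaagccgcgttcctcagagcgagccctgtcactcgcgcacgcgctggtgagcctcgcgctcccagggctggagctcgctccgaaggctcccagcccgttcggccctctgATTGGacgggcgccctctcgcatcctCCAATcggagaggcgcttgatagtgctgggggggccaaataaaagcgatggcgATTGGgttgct
Suz12: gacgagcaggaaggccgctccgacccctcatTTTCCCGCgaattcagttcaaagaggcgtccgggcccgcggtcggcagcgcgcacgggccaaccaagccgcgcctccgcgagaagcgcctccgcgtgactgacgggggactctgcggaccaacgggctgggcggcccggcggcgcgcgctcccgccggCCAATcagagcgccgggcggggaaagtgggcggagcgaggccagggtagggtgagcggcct
Ezh1: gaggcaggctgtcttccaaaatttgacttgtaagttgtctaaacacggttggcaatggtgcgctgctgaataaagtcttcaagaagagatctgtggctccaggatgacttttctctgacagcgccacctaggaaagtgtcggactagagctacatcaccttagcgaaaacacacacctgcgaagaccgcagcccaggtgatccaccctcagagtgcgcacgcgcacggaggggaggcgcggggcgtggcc
Ezh2 held 3 CCAAT matches here and an E2F match just after its start, Suz12 held 1 of each, and Ezh1 held neither. CCAAT letters stand in 37.4% of all 32851 RefSeq start windows of 300 bases, so their presence is common, and E2F letters in 2.26%. In such windows, 5 of the 9 genes had CCAAT letters, as did 42.3% of array genes. Bmi1 and Dnmt3b, also lower in cKO, had neither element, and the same held for Ezh1 and Dnmt3a. A match is a description of the letters and says nothing of binding in these cells.

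Bmi1, the PRC1 subunit known for keeping the Cdkn2a locus silent in stem cells, was lower in cKO by a small amount. Its brightest probe set read 9.39 in WT and 9.22 in cKO of set 1, and 9.75 and 9.24 in set 2. The cKO values were nearly equal and both lay below the WT values. The difference was -0.16 in set 1 and -0.50 in set 2, with a mean of -0.33 (SE 0.17, limma adjusted p = 0.543). The other Bmi1 probe set, with values from 8.57 to 9.20, differed by -0.31, and there the cKO set 2 array read just above the WT set 1 array, so that the groups overlapped. In WT both Bmi1 probe sets were higher in set 2 than in set 1, by 0.36 and 0.42.

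The maintenance pair of DNA methylation, Uhrf1 and Dnmt1, was lower in cKO in both sets. Uhrf1, which recognises hemimethylated DNA behind the replication fork, read 11.50 in WT and 10.85 in cKO of set 1, and 11.17 and 10.43 in set 2. Both cKO arrays lay below both WT arrays. The difference was -0.65 in set 1 and -0.74 in set 2, with a mean of -0.69 (SE 0.21, limma adjusted p = 0.399), or 61.9% of WT. The dimmer Uhrf1 probe set read 8.69 in WT and 7.37 in cKO of set 1, and 8.25 and 7.74 in set 2, again with no overlap. It gave -1.32 in set 1 and -0.51 in set 2, so the probe sets ordered the sets differently, and its mean of -0.92 (SE 0.22) had the lowest adjusted p of the 24, 0.341. The brighter Uhrf1 probe set was the only 1 of the 24 that was at least 1.5-fold lower within both sets, as were 1.62% of all probe sets; none was 1.5-fold higher in both (1.67%).

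Dnmt1, the maintenance methyltransferase, read 10.72 in WT and 10.41 in cKO of set 1 on its brightest probe set, and 10.39 and 10.01 in set 2. Here the groups overlapped, since the cKO set 1 array lay above the WT set 2 array. The difference was -0.31 in set 1 and -0.38 in set 2, with a mean of -0.35 (SE 0.21, limma adjusted p = 0.591). This probe set is of the _x_at kind. The other read 10.75 and 10.29 in set 1 and 10.47 and 9.97 in set 2 in the same order, did not overlap, and gave -0.48 (SE 0.18, limma adjusted p = 0.452).

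Of the new-methylation enzymes, Dnmt3b was lower in cKO, while the small positive difference of Dnmt3a turned to -0.024 without the cKO set 1 array. Dnmt3b, best known from embryonic and cultured cells, read 7.39 in WT and 6.73 in cKO of set 1, and 6.85 and 6.38 in set 2. Both cKO arrays lay below both WT arrays. The difference was -0.66 in set 1 and -0.47 in set 2, with a mean of -0.56 (SE 0.24, limma adjusted p = 0.492), and the second probe set gave -0.48 without overlap, with both WT arrays at 6.61. Dnmt3a, the form prevailing in adult stem cells, read 7.99 in WT and 8.21 in cKO of set 1, and 7.77 and 7.86 in set 2. The groups overlapped, because both set 2 arrays lay below both set 1 arrays. The difference was 0.16 (SE 0.18, limma adjusted p = 0.779). Of the 5 Dnmt3a probe sets, 4 were higher in cKO within both sets (34.7% of all probe sets were), with means from 0.11 to 0.21. In 1 of the 4 both cKO arrays lay above both WT arrays (25.7%). The remaining probe set differed by -0.26 in set 1 and 0.20 in set 2.

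**Figure D2:**
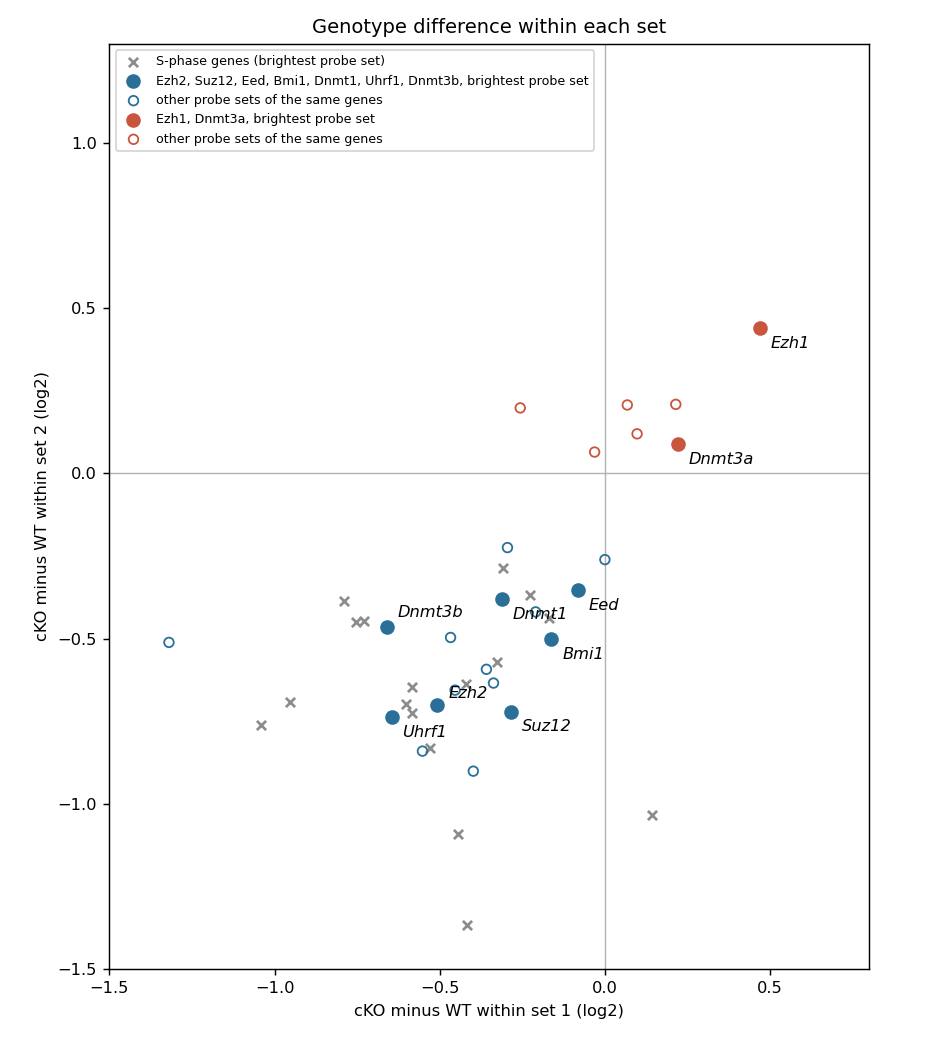
Difference between cKO and WT (log2) within set 1 (horizontal axis) and within set 2 (vertical axis) for every probe set of the 9 genes, filled where it is the brightest of its gene, with S-phase genes as grey crosses. The filled points of the 7 lower genes lie below and left of 0, as do 16 of the 17 S-phase genes, with Eed nearest to 0 in set 1 at -0.083, and Ezh1 lies at 0.47 and 0.44 in the opposite corner.

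E2F letters were present in a start window of 4 of the 9 genes, and of 4.07% of all array genes with a window. The 4 were among the genes lower in cKO, but 7 of the 9 were lower, so this placement says little about direction. The windows reach from 250 bases before to 50 after each start. Whether the letters play a part in the differences was not tested. The 5 matches are shown with 30 bases each on build GRCm38.p6, capitals marking the match. They lie at chr6:47595009-47595038 (minus strand, Ezh2), chr11:79992876-79992905 (plus, Suz12), chr9:20952824-20952853 and chr9:20952574-20952603 (minus, Dnmt1) and chr17:56304117-56304146 (plus, Uhrf1).
Ezh2: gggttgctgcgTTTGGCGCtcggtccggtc
Suz12: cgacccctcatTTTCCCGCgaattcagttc
Dnmt1 upstream match: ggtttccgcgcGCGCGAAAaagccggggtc
Dnmt1 downstream match: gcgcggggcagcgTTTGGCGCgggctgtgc
Uhrf1: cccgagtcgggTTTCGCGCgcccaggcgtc
The Ezh2 match spans positions 4 to 11, the start base being 1 and the base before it -1. The Suz12 match begins at -219, the Dnmt1 matches at -219 and 34 of the most downstream of 3 listed starts, and the Uhrf1 match at -185 of the downstream of 2. Both Dnmt1 and Uhrf1 have further start windows without the letters. Eed, Bmi1 and Dnmt3b, which were also lower in cKO, had none of these letters in their windows, nor had Ezh1 and Dnmt3a. In the S-phase gene list described next, 7 of 17 genes had them. The windows held from 2 to 47 CG pairs, against a median of 7 over all windows. Those with E2F letters held from 31 to 41. Every E2F form searched contains CG, so the 4.07% over all array genes is not a share matched for CG content.

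Transcripts of DNA replication were lower in cKO as well. Of 17 measured S-phase genes, such as the helicase subunits Mcm2 to Mcm7, 16 were lower in both sets (22.9% of all genes), the median difference being -0.60. 12 had an unadjusted limma p under 0.05 as lower (4.75% of genes), but 0 passed after adjustment, as 0.0404% of genes did. Mcm5 differed by -0.90, Cdc6, which loads the helicase, by -0.89 and the thymidine kinase gene Tk1 by -0.82. All 7 measured markers of dividing cells had both cKO arrays below both WT arrays, as did 16% of all genes and 19.9% of those above the limit. Their summed linear intensity was 8487 and 8350 on the cKO arrays against 12380 and 15797 on the WT arrays. Mki67, which marks cycling cells, differed by -0.53 in set 1 and -1.47 in set 2, Bub1 by a mean of -1.07 and Top2a by -0.83. Fewer cells of a kind and less RNA per cell cannot be told apart in sorted bulk samples, and the part of cell division in the differences of the 9 genes was not tested.

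Other cell types were looked at in the same way. Of 10 endothelial markers, 7 lay below the limit on the mean of the 4 arrays. Within both sets 9 were lower in cKO and 1 higher (22.9% and 38.9% of all genes). Their summed intensities were 242 and 237 on the cKO arrays against 999 and 824 on the WT arrays. Pecam1, Cdh5, Tek and Emcn, each below the limit, read 4.97 to 5.70 on the WT arrays. On the cKO arrays they read lower, from 3.50 up to the Pecam1 value of 3.998. Plvap and Selp differed by -3.79 and -4.24 and passed limma's test (adjusted p = 0.0395 and 0.0250). Neither passed with the set as a replicate block (adjusted p = 0.0693 and 0.0645), with any array left out or with log2 of intensity plus 32. Suprabasal markers summed to 21551 and 24767 on the cKO arrays and to 19766 and 6870 on the WT arrays, the WT set 2 array being low. Immune markers summed to 301 to 445 on the WT arrays and 398 to 487 on the cKO arrays, fibroblast markers to 299.7 to 348 and 271 to 298, and melanocyte markers to 202 to 247 and 213 to 278. Their part in the differences was not tested.

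The remaining PRC1 and PRC2 genes showed no common direction. Of 28 listed Polycomb partners 22 were measured, 5 lower and 8 higher within both sets, near the shares over all genes (22.9% and 38.9%). Their median was -0.03 and 0 passed the test (0 also at an unadjusted limma p under 0.05). Mtf2, a PRC2 accessory protein, differed most, by -0.40 in set 1 and -1.18 in set 2, with WT at 8.80 and 9.94 and cKO at 8.41 and 8.77 (limma adjusted p = 0.549). Rbbp4 and Rbbp7, histone chaperones of PRC2 and of other complexes, differed by -0.26 and -0.22. Jarid2, another accessory protein of PRC2, and Ring1, a ubiquitin ligase of PRC1, differed by 0.30 and 0.32. The 9 measured enzymes that oppose Polycomb, among them the H3 lysine 27 demethylase Kdm6a (0.097 in set 1 and -0.32 in set 2), had 2 lower and 1 higher within both sets (22.9% and 38.9% of all genes). Their median of -0.14 was 0.016 in set 1 and -0.32 in set 2, and leaving out each array in turn took it from -0.31 (WT set 1 left out) to -0.0073 (WT set 2 left out). The same range was -0.11 to 0.11 for the Polycomb partners, -0.46 to -0.27 for the DNA methylation partners and -0.70 to -0.48 for the S-phase genes. The largest mean differences there were those of the H2A deubiquitinase Usp16 (0.016 in set 1 and -0.55 in set 2), Kmt2c (-0.11 and -0.33) and Asxl1 (0.052 and -0.39).

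Genes listed as partners of DNA methylation lay mostly below WT. Of 9 measured partners, 6 were lower and 0 higher within both sets (22.9% and 38.9% of all genes). The median was -0.39 and 4 were lower at an unadjusted limma p under 0.05 (4.75% of genes), but 0 passed after adjustment. Hells, a chromatin remodeller needed for DNA methylation, read 9.87 in WT and 9.12 in cKO of set 1, and 10.52 and 9.20 in set 2. Both its cKO arrays lay below both WT arrays, and its difference of -1.04 (SE 0.24, limma adjusted p = 0.341) was larger in size than that of any probe set of the 9 genes. The tRNA methyltransferase gene Trdmt1, which is related in sequence to the Dnmt genes, differed by -0.56 and the corepressor gene Trim28 by -0.47. Pcna and Lig1 of the replication fork are in this list as well, at -0.39 and -0.46. With Trdmt1 they count among the 6 lower genes. Of 4 measured demethylation genes 1 was lower and 2 higher within both sets (22.9% and 38.9% of all genes). Tet1, which oxidises methylcytosine, lay below the limit at 4.23 to 4.67, the repair enzyme gene Apex1 differed by -0.23, Gadd45b by 0.32, and Gadd45a by 0.068 in set 1 and -0.21 in set 2. The 5 measured methyl-CpG readers had a median of 0.04, with Mbd4 at -0.51, Mbd2 at 0.24 and Mbd3 at -0.57 in set 1 and 0.29 in set 2. Most of the Mbd4 difference lay in set 2 (-0.053 and -0.97).

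Genes known as Polycomb targets showed no common direction. Of 27 measured Polycomb targets, many of them developmental regulators, 19 lay below the limit on the mean of the 4 arrays. 6 were lower and 10 higher within both sets, near the 22.9% and 38.9% of all genes. The median was 0.01 and 0 passed limma's test, with 2 higher at an unadjusted p under 0.05 (7.1% of genes). Cdkn2a, the target through which loss of PRC2 or Bmi1 stops cell division, read 3.33 and 3.60 in WT and 3.39 and 3.72 in cKO, below the limit on all 4 arrays. Its neighbour Cdkn2b differed by -0.28 in set 1 and 0.49 in set 2. Gata6, a regulator of the upper hair follicle and sebaceous duct, read 6.02 and 5.82 in WT and 7.07 and 6.79 in cKO, with no overlap and a difference of 1.01 (SE 0.165, limma adjusted p = 0.294). The Hox genes Hoxa5 and Hoxc8 differed by -0.35 and -0.31, with -0.85 and -0.56 in set 2 and 0.15 and -0.05 in set 1. Imprinted genes, which DNA methylation keeps on 1 parental copy, had a median of 0.12 over 17, of which 9 lay below the limit. Of the 17, 1 was lower and 8 higher within both sets (22.9% and 38.9% of all genes). At an unadjusted limma p under 0.05, 3 were higher (7.1% of genes) and 0 lower (4.75%), and 0 passed after adjustment. The 3 were Phlda2 and, below the limit, Dlk1 and Cdkn1c, at 0.36 and 0.38. Phlda2 differed by 0.20 in set 1 and 1.09 in set 2. Peg3 (0.38 and -1.34) and Plagl1 (0.81 and -0.31) had opposite signs in the sets, with their WT set 2 values above their WT set 1 values. Of 15 germline genes, a class silenced by DNA methylation in the body, 14 lay below the limit and only Piwil2 above it, at 7.44 to 7.94 with a difference of 0.11.

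**Figure D3:**
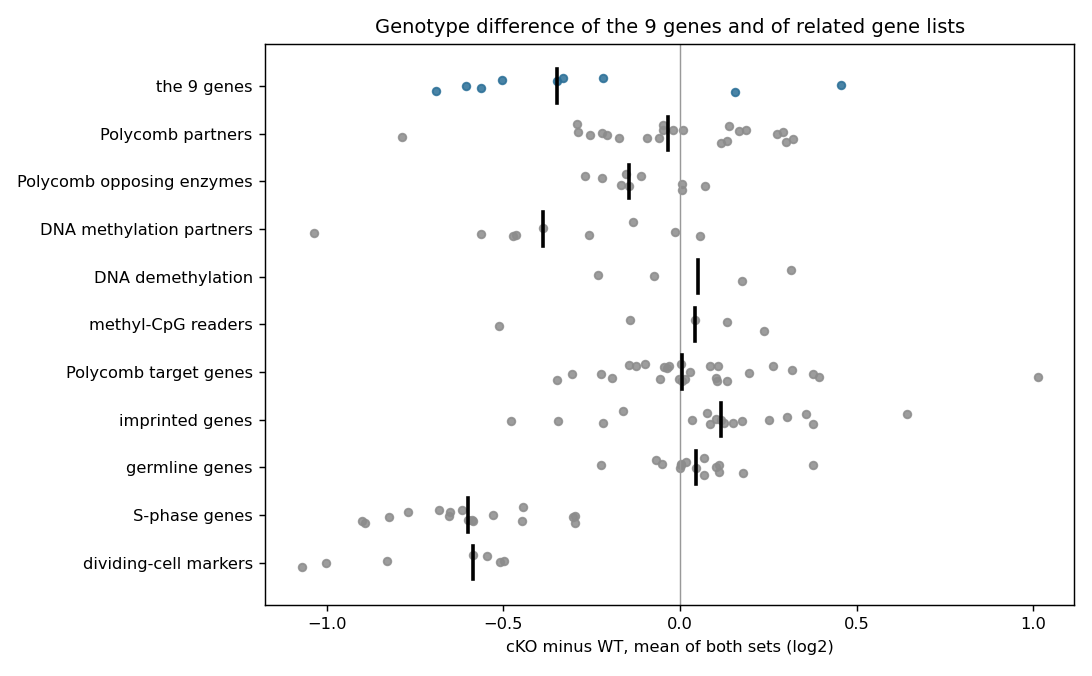
Difference between cKO and WT (log2, horizontal axis, mean of both sets) of each measured gene of each list (vertical axis), 1 point a gene at its brightest probe set, with the list median as a black bar. S-phase genes and dividing-cell markers lie left of 0 with medians of -0.60 and -0.59. DNA methylation partners have a median of -0.39 and imprinted genes one of 0.12, and target and germline genes centre near 0.

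Between the sets, which bear different state labels, none of the 24 probe sets passed limma's test and no probe set of the array did (0%). At an unadjusted p under 0.05, 430 were higher in set 2 (2.11%) and 307 lower (1.51%), with 0 of the 24 among them. Of the 24, 4 had both set 2 arrays above both set 1 arrays (13.8%) and 3 had them below (16.9%). Set 2 minus set 1 was 0.45 for Suz12, 0.19 for Bmi1, 0.19 for Ezh2 and 0.01 for Eed. It was -0.45 for Dnmt3b, -0.37 for Uhrf1, -0.37 for Dnmt1, -0.29 for Dnmt3a and -0.26 for Ezh1. These depended on the probe set and the array: a pair of Dnmt3a probe sets gave 0.21 and 0.19 and the mean of its probe sets -0.042, and the dim Ezh1 probe set gave 0.35. The dimmer Uhrf1 probe set gave -0.03, with 0.37 in cKO and -0.44 in WT, and the second Dnmt3b probe set gave -0.12. With each array left out in turn, Uhrf1 ranged from -0.74 to -0.0032, Dnmt3b from -0.78 to -0.12, Dnmt1 from -0.56 to -0.18, Ezh1 from -0.49 to -0.021 and Suz12 from 0.089 to 0.81. All 6 Suz12 probe sets were higher in set 2, by 0.24 to 0.60. Both Dnmt1 probe sets were lower in set 2, at -0.30 and -0.37, and the brightest had no overlap between the sets (19% of genes were so placed). At the brightest probe sets of Suz12, Ezh2 and Bmi1 the positive value lay mostly in WT: Ezh2 was 0.28 higher in set 2 in WT and 0.09 in cKO, Suz12 0.67 and 0.23, and Bmi1 0.36 and 0.02. The other Bmi1 probe set gave 0.42 and 0.21. A dimmer Suz12 probe set gave 0.27 in WT and 0.34 in cKO, and the other Suz12 probe sets were larger in WT. Without the WT set 2 array, set 2 minus set 1 was -0.16 for Ezh2, -0.059 for Bmi1 and 0.089 for Suz12. Whether the genotype difference depends on the set cannot be tested with 1 array of each kind.

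The arrays that stood apart bore on some genes more than others. Without the WT set 2 array, the Suz12 difference was -0.17 in place of -0.50, Bmi1 -0.15 in place of -0.33, Eed -0.15 and Dnmt3a 0.04, while Uhrf1 was -0.85, Dnmt3b -0.84 and Dnmt1 -0.51. Without the cKO set 1 array, Dnmt3a was -0.024, Dnmt1 -0.55, Ezh1 0.32, Ezh2 -0.56 and Uhrf1 -0.90. Between the 2 arrays outside both, cKO set 2 and WT set 1, Ezh2 differed by -0.42, Ezh1 by 0.20 and Suz12 by -0.053, and Uhrf1 by -1.06, Dnmt3b by -1.01 and Dnmt1 by -0.71; this contrast also mixes genotype with set. Without the cKO set 2 array Dnmt1 was -0.15, and without the WT set 1 array -0.18, and Dnmt3b was -0.39 and -0.29. Without WT set 1, Suz12 was -0.84 and Bmi1 -0.51. Ezh2, Ezh1, Uhrf1, Suz12, Eed, Bmi1, Dnmt1 and Dnmt3b kept the sign of their difference with each array left out; Dnmt3a did not.

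**Figure D4:**
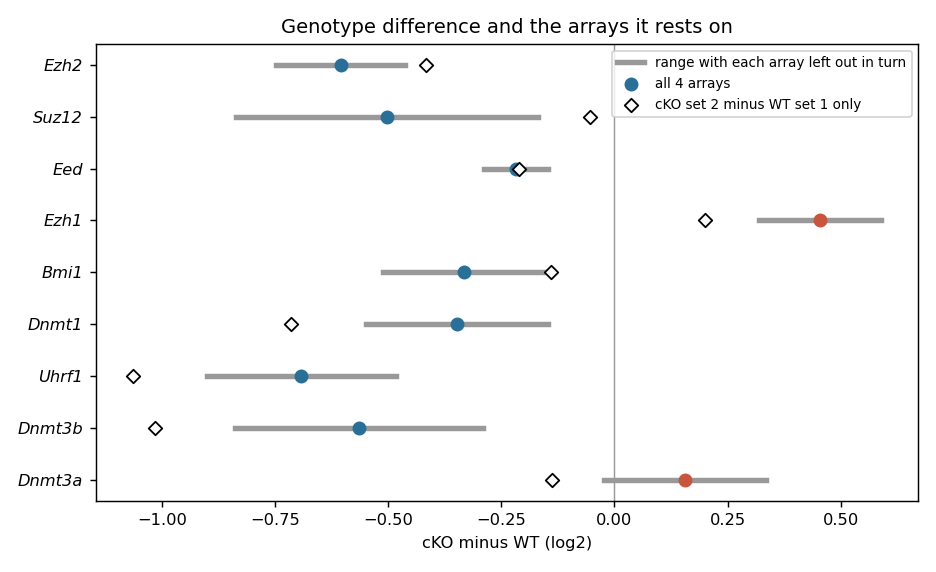
Difference between cKO and WT (log2, horizontal axis) of the brightest probe set of each gene (vertical axis): filled points for all 4 arrays, grey bars for the range with each array left out in turn, and open diamonds for cKO set 2 minus WT set 1. Only the Dnmt3a bar crosses 0, and the Suz12 diamond lies at -0.053.

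Genes with the most similar pattern over the 4 arrays were found by the distance between log2 profiles, each centred on its own mean, among 8031 other genes above the limit; with 4 arrays this is a description only. Dnmt3b had as its nearest the mitotic kinase gene Aurkb (distance 0.06), the helicase gene Mcm3 (0.08) and the amino acid transporter gene Slc1a5 (0.08); Aurkb and Mcm3 are also in the dividing-cell and S-phase lists. Uhrf1 had Galm, Scpep1 and the checkpoint gene Trip13 (0.09 to 0.10). Dnmt1 had Dnph1, Polr3a and Wrap53 (0.05 to 0.07). Ezh2 had Elmo1, the RNA-binding protein gene Tardbp and Msantd3 (0.07 to 0.09), and Suz12 had Krit1 and the splicing-related genes Crnkl1 and Srek1ip1 (0.03 to 0.05). Bmi1 had Tceal9, the chaperone gene Hspa4 and Ccdc127 (0.04), and Ezh1 had the lysosomal gene Arsa, Snx21 and Degs1 (0.03 to 0.04). Eed and Dnmt3a spanned less than 0.5 over the arrays and were not searched.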

How the data were processed

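RNA of sorted hair follicle stem cells (4 samples) was extracted with Trizol and 2 µg of it labelled for Affymetrix arrays (labels' protocols). The deposited intensity values are linear (5.29 to 25561) and normalized between arrays by the authors (medians 82.0 to 83.3). RMA is named in the submitters' processing notes; the sources used here give no settings. Log2 was taken and no further normalization made. RMA gives no detection call, and values near the lowest intensities compress differences. Precision is limited by having only 4 arrays.

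Probe sets with 1 gene symbol in the platform annotation were used (20380, less 10 of Xist and Y-linked genes). limma 3.58.1 in R 4.3.3 (lmFit, eBayes, no covariate, all probe sets, Benjamini-Hochberg, threshold 0.05) compared cKO with WT and set 2 with set 1, and was tested on simulated data. Lists were described by counts and medians. Named were the 9 genes, up to 3 genes a list with the largest difference above percentile 40, and the 3 nearest profiles. Cdkn2a, Cdkn2b, Kdm6a, Tet1, Rbbp4, Rbbp7, Pcna, Lig1, the Mcm genes as a group and 4 endothelial markers were named after their values were seen. So were Cdkn1c and Dlk1. Members and lists were chosen with earlier results of these data known. Start sequences are from RefSeq (GRCm38.p6), where all 9 genes matched by symbol.

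Set numbers were read as pairing the arrays, since titles and descriptions share them (across probe sets, the deviations of arrays sharing a number had r = 0.212). Alternatives covered filter, probe set choice, normalization, log offset, variance model, block, threshold and each array left out.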

Additional observations from a re-analysis of the deposited data

Results flagged for a closer look

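Among the 24 probe sets of the 9 genes, 2 differed in opposite directions in the 2 sets, which was not tested, since each set holds 1 array of each genotype. A Dnmt3a probe set read -0.26 for cKO minus WT within set 1 and 0.20 within set 2, whereas the other 4 Dnmt3a probe sets were positive in both. The dim Ezh1 probe set, which lies below the limit of 5.40, read -0.031 and 0.064.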

How the results depend on the processing

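None of the 9 genes, each at its brightest probe set, passed limma's test under any alternative run, in either comparison. The count of probe sets called between genotypes was 7 with all probe sets and 0 with log2 of intensity plus 32, 19 with a variance trend and robust fitting, 11 at an adjusted p under 0.10, 2 with the set as a replicate block, and 0 with any array left out (a range of 0 to 0, the remaining single array of a group being assumed to vary like the others). The replicate block changed no call of the 9 genes (adjusted p from 0.266 to 0.671). Signs of the genotype difference held for 8 genes. Dnmt3a ranged from -0.024 to 0.33 with each array left out, and was -0.14 between cKO set 2 and WT set 1 alone, a comparison chosen after seeing the data, where Ezh1 was 0.20, Ezh2 -0.42, Suz12 -0.053, Dnmt1 -0.71, Dnmt3b -1.01 and Uhrf1 -1.06. Set differences turned for Ezh1 (-0.26) to 0.046 and for Eed (0.01) to -0.018 when probe sets were averaged per gene, Eed to -0.011 with a second quantile normalization. With each array left out they ranged from -0.16 to 0.54 for Ezh2, -0.17 to 0.18 for Eed and -0.059 to 0.44 for Bmi1. The dim second Ezh1 probe set, at 0.35, enters that mean. The cause of the other changes was not tested. Counted by gene, 6 of 9 lay lower on both cKO arrays and 7 lower within both sets with 1 probe set a gene, and 7 and 7 with the mean of probe sets, against 13 and 16 of 24 probe sets. Signal near the lowest intensities limits Tet1, Cdkn2a, the germline genes, most of the endothelial markers and the dim Ezh1 and Eed probe sets.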
